A study of Homo sapiens with 9 samples.

Results

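The genes examined here encode the SR proteins, the hnRNPs and the core factors that recognise the branch point and 3′ splice site of an intron. They were chosen by symbol among the protein-coding genes of GENCODE release 44: the numbered SRSF genes, the HNRNP genes, the SF3A and SF3B subunits, U2AF1 and U2AF2, together with TRA2A, TRA2B, PTBP1 and RBM39. The rule uses symbols and no measured value, but it was set with earlier results of these data known. The rule gave 53 of 62700 genes, and 762 of 252835 transcripts belonged to them. There were 12 SRSF genes, 27 hnRNP genes with PTBP1 counted among them, 9 SF3A and SF3B genes, 2 U2AF genes and the 3 genes TRA2A, TRA2B and RBM39.

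SR proteins bind exonic sequences and help the spliceosome to include an exon, while many hnRNPs bind introns or exons and oppose its inclusion. U2AF reads the polypyrimidine tract and the AG of the 3′ splice site, and the SF3A and SF3B complexes hold the U2 snRNP on the branch point. Many of these genes control their own amounts by splicing: their transcripts can take up a poison exon or keep an intron, which brings an early stop codon and leads the RNA to nonsense-mediated decay (NMD) or keeps it in the nucleus.

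RNA was measured in HAL-01, a B cell acute lymphoblastic leukemia line with the t(17;19) translocation and the fusion transcription factor TCF3::HLF. All 9 libraries came from cells that stably expressed Cas9 and GFP and were collected on day 13. The MEF2C-enhancer KO group held 3 libraries with sgRNA_96 and 3 with sgRNA_97, both directed at the HLF motif of the enhancer of MEF2C that TCF3::HLF binds, and the control group held 3 libraries with the scrambled guide SCR1. The libraries were numbered 1, 3 and 4 in every group. The labels do not say whether these were separate cultures, so the p-values measure the spread between libraries, which may be technical, and the share of edited cells was not analysed here.

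Library totals ranged from 15212462 to 29777361 counts, SCR1 replicate 1 being the deepest. Among the markers of B cell precursor leukemia, PAX5 lay between 545 and 582 CPM over the 9 libraries, where CPM are counts scaled to 1000000 per TMM-scaled library. EBF1 lay between 226 and 261 CPM and VPREB1 between 176 and 226 CPM. Other markers of that list were higher in every KO library than in every control: RAG1 at 256 to 293 CPM in SCR1 and 442 to 528 CPM in KO, DNTT at 2041 to 2131 and 2279 to 2559.7 CPM, and RAG2 at 86.2 to 90.4 and 100.9 to 112 CPM. The part of these shifts in the results below was not tested. Of 4 T cell markers 3 were at 0 in every library, as were all 4 erythroid markers. Markers listed for myeloid cells summed to 18.7 to 21.5 CPM in SCR1 and 19.4 to 23.98 CPM in KO. Among them, MPO stood at 2.57 to 2.89 CPM in SCR1 and 4.12 to 7.11 CPM in KO, and CSF1R at 15.7 to 18.5 and 12.4 to 16.5 CPM. The markers listed for stroma, with COL1A2 and COL3A1 at 0, summed to 19.6 to 24.1 CPM and 17.4 to 20.9 CPM. Nearly all of the stromal sum was PDGFRB, at 19.1 to 23.8 CPM in SCR1 and 17.4 to 20.9 CPM in KO. MEF2C stood at 560, 559 and 536 CPM in SCR1 and at 495 to 553 CPM in KO with a median of 501. Its log2 fold change was -0.12 with an adjusted p of 0.0620 in the quasi-likelihood test of edgeR, and 5 of 6 KO libraries lay below all 3 controls. Of 18 alternatives, 3 gave MEF2C an adjusted p under 0.05, and the log2 fold change lay between -0.17 and -0.11 in all of them. The paper, whose methods name DESeq2, reports MEF2C among the genes lowered by the enhancer KO. It also reports lower MEF2C RNA by RT-qPCR and lower protein by Western blot.

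In MEF2C-enhancer KO cells, the gene counts of most splicing factors that changed were lower, with log2 fold changes between -0.29 and -0.11. The RNAs of 4 of 9 SF3A and SF3B subunits, of U2AF2, of PTBP1 and of 11 hnRNPs, HNRNPA1 among them, fell, while SRSF11, SRSF5 and RBM39 rose. Of the 53 genes, 49 passed the filter on low counts. Of these, 24 had an adjusted p under 0.05, 21 lower and 3 higher. Among all 14436 genes tested, 20.7% were called, 10.6% lower and 10.1% higher, whereas 42.9% of the splicing factor genes were called lower and 6.12% higher. Their median log2 fold change was -0.11 beside 0.003 over all genes, and 37 of 49 were below 0. In 17 of 49 genes all KO libraries lay below all controls, which was so for 10.2% of all genes, and in 2 they lay above, which was so for 10.1%. As in any bulk measurement, fewer cells with an RNA and less of it per cell cannot be told apart.

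The count of called genes depended on the control libraries, on the correction for isoform length and on the scale and test. Without SCR1 replicate 1 it was 11 and without SCR1 replicate 4 it was 15, and without replicate 1 of both guides it was 26. With the average transcript length of each gene as an offset, 17 were called, 13 lower and 4 higher. By limma on log2(TPM + 1), which changes the scale, the test and the filter together, 8 were called, 5 lower and 3 higher. The share of lower calls went from 87.5% to 76.5% and 62.5%. The median log2 fold change was -0.13 with the offset and -0.12 by limma, beside -0.11 in the main test. With the offset 38 of 49 genes were below 0, and by limma 35 of 48. The share of all genes called in each of these settings is not given here.

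**Figure D1:**
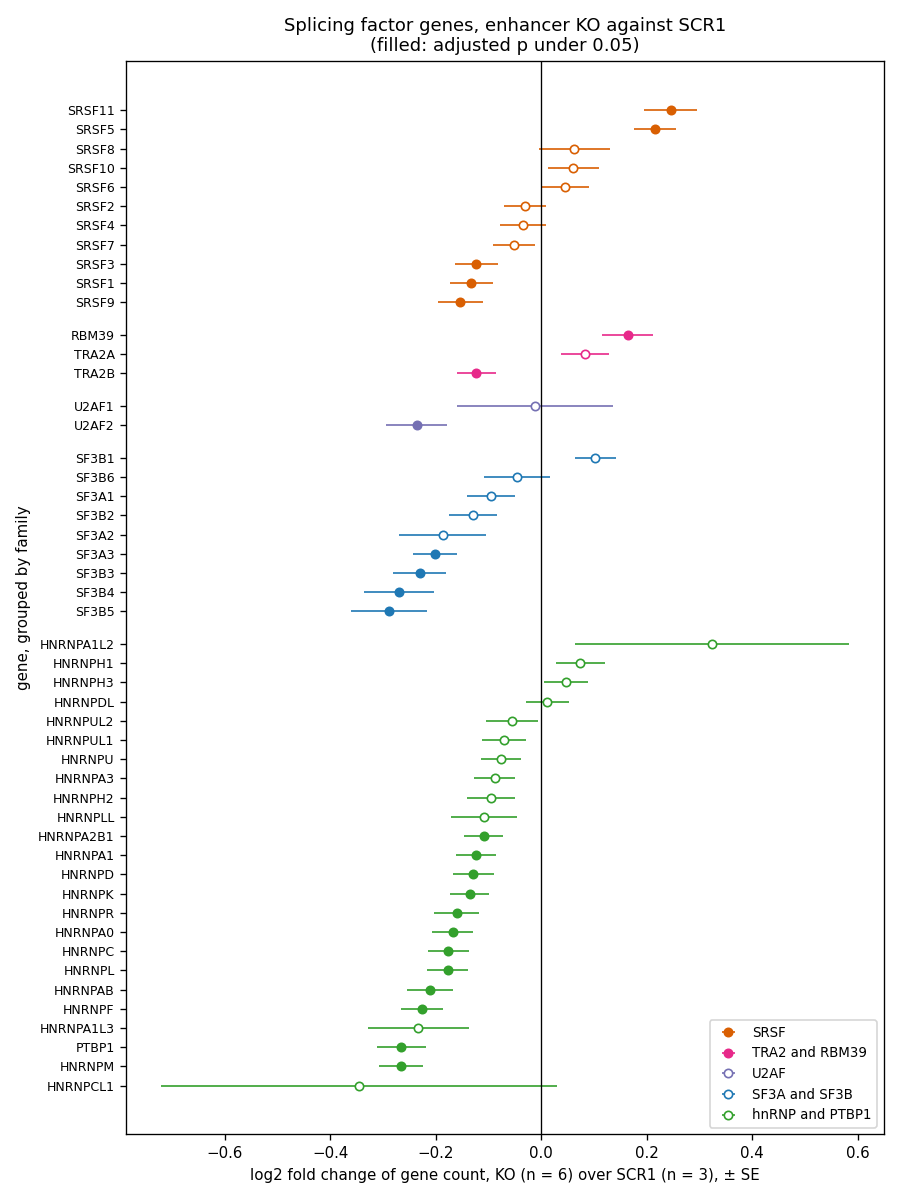
Log2 fold change of the gene count in MEF2C-enhancer KO (n = 6) over SCR1 (n = 3) for the 49 splicing factor genes tested, with SE as bars and filled points for an adjusted p under 0.05. The 21 filled points left of 0 lie mostly among the hnRNP, SF3A and SF3B genes, and the 3 to the right are SRSF11, SRSF5 and RBM39.

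Among the SR protein genes, 11 of 12 were tested, and 2 rose, 3 fell and 6 did not pass. SRSF12 was not tested, with a mean of 0.019 CPM in SCR1 and 0 in every KO library. The summed TPM, which corrects for transcript length, ranged in SCR1 from 25.5 for SRSF8 to 748 for SRSF3. SRSF11, an SR-related protein that interacts with the large subunit of U2AF, stood at 378, 399 and 401 CPM in SCR1 replicates 1, 3 and 4. Its lowest, median and highest KO values were 414, 468 and 493 CPM. All 6 KO libraries exceeded the controls, and the log2 fold change was 0.25 ± 0.05 (SE, adjusted p = 0.00285).

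SRSF5, an SR protein whose RNA responds to serum and insulin, measured 301, 299 and 316 CPM in SCR1. In KO it ranged from 343 to 369.6 CPM with a median of 352. There was no overlap, and the log2 fold change was 0.22 ± 0.04 (SE, adjusted p = 0.00127). The 3 SR protein genes that fell did so by less. SRSF9 had a log2 fold change of -0.15, SRSF1, the SR protein first known as ASF/SF2, of -0.13, and SRSF3, the smallest SR protein, of -0.12. SRSF3 measured 570.04, 551 and 585 CPM in SCR1 and 498 to 548 CPM in KO, with no overlap. The log2 fold changes of SRSF2, SRSF4, SRSF6, SRSF7, SRSF8 and SRSF10 lay between -0.05 and 0.06, with adjusted p of 0.386 or more. Reads of SRSF2 and SRSF9 could be shared with genes that overlap them on the other strand, MFSD11 and DYNLL1 among them. It was not stated whether the counting used strand. The same limit holds for other members, HNRNPAB with PHYKPL and HNRNPA2B1 with CBX3 among them.

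RBM39, an SR-like protein that works with U2AF and is the target of aryl sulfonamide degraders, stood at 381, 413 and 414 CPM in SCR1. It ranged from 409 to 474 CPM in KO with a median of 457. Of the 6 KO libraries 5 were above all controls, and sgRNA_96 replicate 1 was not. The log2 fold change was 0.16 ± 0.05 (SE, adjusted p = 0.0248), and without SCR1 replicate 1 the call was lost. The TRA2 pair, SR-like proteins that bind GAA-rich exonic enhancers, moved unequally. TRA2B fell from 369, 375 and 372 CPM in SCR1 to 327 to 351 CPM in KO, with no overlap. The adjusted p was 0.0289 at a log2 fold change of -0.12. TRA2A stood at 0.08 on the log2 scale (adjusted p = 0.214).

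U2AF2, the large U2AF subunit that binds the polypyrimidine tract, measured 381, 345 and 351 CPM in SCR1. Its KO values ran from 285 to 347 CPM with a median of 298. The KO library sgRNA_96 replicate 1 lay within the controls and the other 5 below them. The log2 fold change was -0.24 ± 0.06 (SE, adjusted p = 0.00881). The call was lost without SCR1 replicate 1, with the length offset and on the TPM scale. For U2AF1, the small subunit that contacts the AG, no change was detectable: SCR1 replicate 3 held 113 CPM and the other controls 217 and 223, so the SE of its log2 fold change was 0.15. The assembly carries a near-identical copy of U2AF1, and how Salmon divided reads between them makes its level uncertain.

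All 9 SF3A and SF3B genes were tested, 4 fell, none rose, and the median log2 fold change was -0.19. SF3B5, a small subunit of SF3B, stood at 71.2, 60.4 and 63.7 CPM in SCR1 and at 46.5 to 60.7 CPM in KO with a median of 52.4. The groups met at a single library, sgRNA_96 replicate 1, and the log2 fold change was -0.29 ± 0.07 (SE, adjusted p = 0.0102). SF3B4, a subunit with RNA recognition motifs that contacts RNA upstream of the branch point, measured 133, 117 and 118 CPM in SCR1 and 92.3 to 118 CPM in KO with a median of 99.9. The log2 fold change was -0.27 ± 0.07 (SE, adjusted p = 0.00956), and here too sgRNA_96 replicate 1 lay within the controls. The calls of both genes were lost without SCR1 replicate 1 and on the TPM scale.

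SF3B3, a large scaffold subunit of SF3B, fell with no overlap. It measured 367, 349.96 and 340.04 CPM in SCR1 and 276 to 318 CPM in KO with a median of 306, and the log2 fold change was -0.23 ± 0.05 (SE, adjusted p = 0.00399). SF3A3 also fell with no overlap, by 0.20 on the log2 scale (adjusted p = 0.00322). The remaining subunits did not pass. SF3A2 stood at -0.19 on the log2 scale, SF3B2 at -0.13, SF3A1 at -0.09 and SF3B6, which contacts the branch point adenosine, at -0.05. SF3B1, the subunit mutated in myelodysplastic syndromes and the target of pladienolide, had a log2 fold change of 0.10 with an adjusted p of 0.0744.

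Among the hnRNP genes and PTBP1, 24 of 27 were tested, 12 fell, none rose and 12 did not pass, and the median log2 fold change was -0.13. HNRNPCL2, HNRNPCL3 and HNRNPCL4 were not tested, with means of at most 0.030 CPM. The most abundant in SCR1 by TPM was HNRNPA1 with 3392, followed by HNRNPA2B1 with 1101 and HNRNPH1 with 1056. HNRNPM, which binds GU-rich intronic sequences, stood at 432, 418 and 459 CPM in SCR1. Its KO values ran from 351 to 384 CPM with a median of 361. The groups did not overlap, and the log2 fold change was -0.27 ± 0.04 (SE, adjusted p = 0.000415).

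PTBP1, the polypyrimidine tract binding protein that represses neuronal exons, measured 481, 473 and 505 CPM in SCR1. In KO it ranged from 373 to 435 CPM with a median of 405. The groups did not overlap, and the log2 fold change was -0.27 ± 0.05 (SE, adjusted p = 0.000985). The calls of HNRNPM and PTBP1 were lost with the length offset and on the TPM scale, with adjusted p up to 0.376 and 0.229 over the alternatives. HNRNPF, which binds G-runs, stood at 449, 414 and 424 CPM in SCR1 and 356 to 383 CPM in KO with a median of 366. Its log2 fold change of -0.23 ± 0.04 (SE, adjusted p = 0.000996) kept its call under all 18 alternatives.

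HNRNPAB, a relative of HNRNPD, measured 336, 309.9 and 339.6 CPM in SCR1 and 269 to 299.7 CPM in KO with a median of 282. Control and KO values were again separate, and the log2 fold change was -0.21 ± 0.04 (SE, adjusted p = 0.00327). The other 8 that fell had log2 fold changes between -0.18 and -0.11. They were HNRNPL, HNRNPC, HNRNPA0, HNRNPR, HNRNPK, HNRNPD, HNRNPA1 and HNRNPA2B1, and in all but HNRNPA2B1 the KO libraries lay below all controls. HNRNPA1, the most abundant member, went from 3124, 3083 and 3216 CPM in SCR1 to between 2726 and 3074 CPM in KO. All KO libraries were below the controls, and the adjusted p was 0.0313.

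The 12 hnRNP genes that did not pass included HNRNPH1, HNRNPH3 and HNRNPDL, with log2 fold changes of 0.07, 0.05 and 0.01, and HNRNPU, the nuclear scaffold protein, at -0.08. HNRNPH2 stood at -0.10 with no overlap between the groups and an adjusted p of 0.160, and it shares its locus with a readthrough gene on the same strand. The extreme values, -0.35 for HNRNPCL1 and 0.32 for HNRNPA1L2, belonged to intronless relatives of HNRNPC and HNRNPA1 with SE of 0.38 and 0.26, whose counts rest on how reads were divided among near-identical copies.

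**Figure D2:**
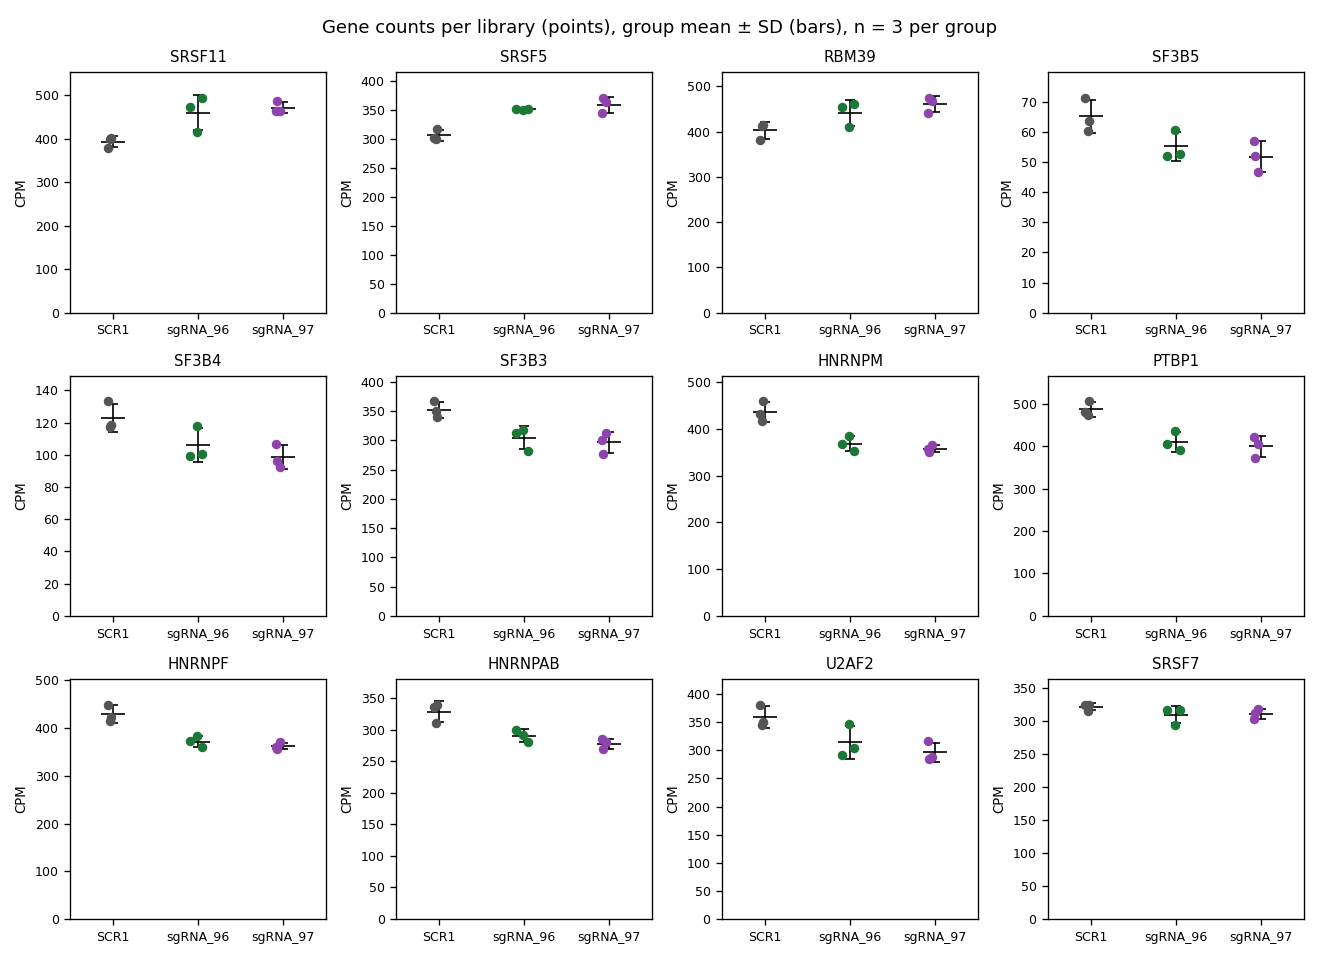
Gene counts in CPM per library (points) with the mean and SD of each group of 3 (bars) for the 3 genes that rose, the 8 called genes with the largest falls, and SRSF7. The groups separate in SRSF11, SRSF5, SF3B3, HNRNPM, PTBP1, HNRNPF and HNRNPAB, whereas sgRNA_96 replicate 1 meets the controls in RBM39, SF3B5, SF3B4 and U2AF2, and SRSF7 shows little difference in its total.

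Each guide was also compared with the same 3 control libraries, which ties the results of the guides to each other. With sgRNA_96, 11 of 49 splicing factor genes were called, 9 lower and 2 higher, a share of 22.4% beside 11.2% of all genes. With sgRNA_97, 19 were called, 16 lower and 3 higher, 38.8% beside 15.1% of all genes. The median log2 fold change was -0.11 with each guide. For HNRNPM the log2 fold change was -0.24 with sgRNA_96 and -0.29 with sgRNA_97, for PTBP1 -0.25 and -0.28, for SF3B4 -0.22 and -0.32, and for SRSF11 0.23 and 0.26. SF3B4, SF3B5, U2AF2 and RBM39 were called with sgRNA_97 but not with sgRNA_96, and this does not show that the guides differ. The test of sgRNA_97 against sgRNA_96 compares no control level, though the control libraries entered its estimate of the spread. None of the 49 genes was called by edgeR, 0 had an unadjusted p under 0.05, and the percentage over all genes was 0.0208%. The log2 differences between the guides lay between -0.51 and 0.17 with a median of -0.02. The counts for each guide rested on single libraries: with sgRNA_96 a single gene was called without its replicate 3, 2 without SCR1 replicate 1 and 3 without SCR1 replicate 4. With sgRNA_97 there were 5 without SCR1 replicate 1, 6 without sgRNA_97 replicate 3 and 11 without SCR1 replicate 4.

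Genes that work beside these factors were described as lists, and the genes named from them were chosen after their values were seen. Their counts are to be read beside the 20.7% of all genes called, 10.6% lower and 10.1% higher. Of the U snRNP and Sm genes, which build the spliceosome itself, 27 of 28 were tested, 13 fell and none rose, with a median log2 fold change of -0.16. SNRPB, which encodes the SmB proteins, stood at -0.33, SNRPG at -0.32 and LSM4 at -0.29. PRPF8, the core of the U5 snRNP, stood at -0.01 and was not called. Of 14 genes for SR protein kinases and speckle proteins, 4 rose and 1 fell, with a median of 0.07. The CLK kinases phosphorylate SR proteins: CLK1 rose with a log2 fold change of 0.25 and CLK4 with 0.28. SRRM2, a scaffold of nuclear speckles, rose with 0.23, and TNPO3, which imports SR proteins into the nucleus, fell with -0.15. Of 18 NMD and exon junction genes, 1 rose and 2 fell, 16.7% in all and so below the share over all genes, with a median of -0.07. The helicase EIF4A3 of the exon junction complex stood at -0.30 and the kinase SMG1 at 0.16, while UPF1, the central NMD helicase, stood at -0.14 and was not called. Of 40 other splicing regulators, 6 rose and 8 fell, with a median of -0.02. LUC7L3, a U1-associated protein with an SR-like domain, had the largest rise with 0.33, and PTBP2, the neuronal relative of PTBP1, rose with 0.25.

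Gene totals hide which transcripts the reads belong to. The 762 annotated transcripts of the splicing factor genes comprised 351 coding ones, 180 of the retained-intron type, 159 of the NMD type and 72 with no defined reading frame. Retained-intron and NMD transcripts are called unproductive here after these types of the annotation. The types do not show that every such transcript lacks the full reading frame, which was not checked. In HNRNPA2B1-203, the most abundant NMD transcript of HNRNPA2B1, the stop lies outside the added exon, 157 bases before the last exon junction. In SCR1, coding transcripts held 72.8 to 73.4% of the counts of these genes, NMD transcripts 13.5 to 14.1% and retained-intron transcripts 11.4 to 12.5%. In KO, the retained-intron share was 13.5 to 15.6%, above all controls. The NMD share was 12.3 to 13.3% and the coding share 70.5 to 72.03%, both below all controls. The summed TPM of the 53 genes was 17887 to 18145 in SCR1 and 16411 to 17702 in KO, again with no overlap.

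The retained-intron share was also higher outside the splicing factors. Over all protein-coding genes, retained-intron transcripts took 5.77 to 5.98% of the counts in SCR1 and 6.44 to 7.10% in KO. An exact two-sided permutation test over libraries gave p = 0.0238, the smallest that 6 against 3 libraries allow. The NMD share over all genes was 3.59 to 3.62% in SCR1 and 3.60 to 3.696% in KO (exact two-sided permutation p = 0.167). Across 5810 genes with a mean of at least 10 counts in both classes, the log2 ratio of unproductive to coding counts differed by a median of 0.18, and 68.1% of genes were above 0. Every within-gene ratio below has to be read against this shift.

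Of the splicing factor genes, 38 had enough counts in both classes for a test of this ratio, and 15 did not, among them SF3A3, SF3B4, SF3B5, HNRNPA0 and HNRNPF, for which the annotation lists no unproductive transcript. The median unproductive share in SCR1 was 12.8% over the 38 genes and 11.7% over all genes tested. It ran from 0.319% in HNRNPUL2 to 79.6% in RBM39. TRA2B with 78.2%, SRSF5 with 61.2% and SRSF11 with 58.04% were also mostly unproductive by this count. The median log2 difference of the ratio was 0.27 for the 38 genes beside 0.18 for all, and 29 of 38 were above 0.

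In 4 of 38 genes the ratio changed in the gene-level test of diffSpliceDGE in edgeR, all toward unproductive transcripts: SRSF7, HNRNPL, SRSF11 and HNRNPH1. Among all genes tested, 1.64% were called, 87 higher and 8 lower, and 10.5% of the 38. In 7 of 38 genes the share was above all controls in every KO library, beside 6.01% of all genes, and in 1 it was below, beside 0.62%. These calls are less firm than those on gene totals. By limma on the log2 ratio none of the 38 genes was called, and 1 gene was called over the whole table. When each class was scaled by its own library total, which takes out the shift shared by all genes, 2 were called: SRSF7, still higher with a log2 difference of 0.28 and an adjusted p of 0.0410, and HNRNPA2B1, lower with -0.43 and 0.0365. Without SCR1 replicate 1 the count was 1, without SCR1 replicate 4 it was 1, without SCR1 replicate 3 it was 2, and without replicate 1 of both guides it was 7.

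SRSF7, an SR protein with a zinc knuckle, held 38.1, 40.9 and 40.6% of its counts on unproductive transcripts in SCR1 replicates 1, 3 and 4. In KO the share was 45.9% at the lowest, 47.4% at the median and 49.3% at the highest. The groups did not overlap, and the log2 ratio differed by 0.45 ± 0.06 (SE, edgeR adjusted p = 0.00217). The call held without any single library, with an adjusted p of at most 0.0249, and was lost by limma and with retained-intron transcripts alone as the unproductive class. In SRSF11 the share went from 56.9, 58.4 and 58.8% in SCR1 to between 62.2 and 68.9% in KO with a median of 65.2%, with no overlap. The log2 ratio differed by 0.47 ± 0.09 (SE, edgeR adjusted p = 0.0143), and the call was lost when any one of the SCR1 libraries was left out.

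HNRNPH1, which binds G-runs, held 49.6, 54.1 and 54.6% unproductive counts in SCR1 and 56.2 to 64.98% in KO with a median of 62.96%. The groups did not overlap, the log2 ratio differed by 0.52 ± 0.11 (SE, edgeR adjusted p = 0.0263), and the call was lost in 11 of 19 alternatives. HNRNPL, which binds CA repeats, held 13.7, 17.8 and 11.97% in SCR1 and 17.8 to 22.5% in KO with a median of 20.2%. The highest control and the lowest KO library met, and the log2 ratio differed by 0.58 ± 0.11 (SE, edgeR adjusted p = 0.0132). This call was lost in 7 of 19 alternatives, among them those without SCR1 replicate 1 and without SCR1 replicate 4. RBM39 stood just outside the threshold: its share was 76.2 to 82.87% in SCR1 and 82.91 to 89.4% in KO, with an adjusted p of 0.0502. HNRNPA2B1 was the gene whose share was lower in every KO library, 50.7 to 52.4% beside 53.7 to 59.99% in SCR1, with an adjusted p of 0.0879 in the main scaling.

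**Figure D3:**
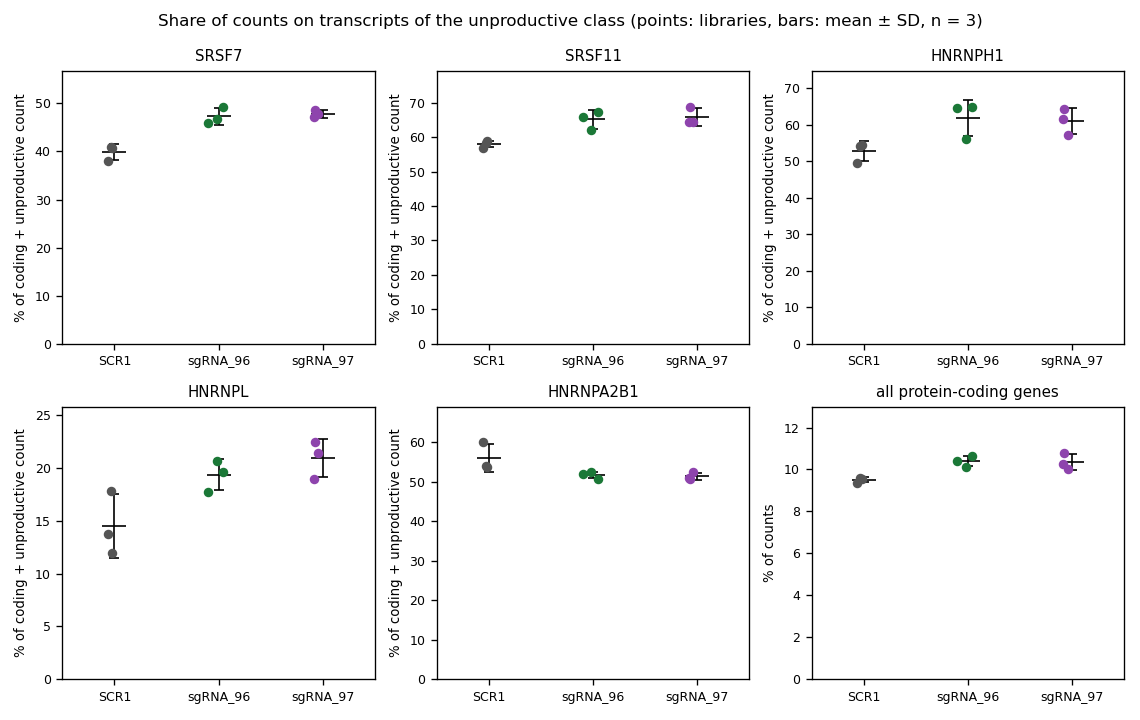
Percentage of counts on unproductive transcripts per library (points) with the mean and SD of each group of 3 (bars) for 5 splicing factor genes and for all protein-coding genes together. The share is higher with both guides in SRSF7, SRSF11 and HNRNPH1, the groups meet in HNRNPL, it is lower in HNRNPA2B1, and over all genes it goes from 9.38 to 9.60% in SCR1 to between 10.04 and 10.8% in KO.

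A test of each class on its own, added after the data were seen, separated the parts of the ratio. The coding count was lower in KO in 12 of the 38 genes and higher in none, beside 6.87% and 3.48% of the 5810 genes. The unproductive count was higher in 4 and lower in 1, beside 3.25% and 0.172%. The median log2 fold change of the coding class was -0.13 beside -0.05 for all genes, and that of the unproductive class 0.11 beside 0.13. Both classes moved in SRSF7: the coding count went from 202, 187 and 193 CPM in SCR1 to between 157 and 172 CPM in KO (log2 fold change -0.25, edgeR adjusted p = 0.00664). Its unproductive count went from 124, 129 and 132 CPM to between 138 and 156 CPM (log2 fold change 0.20, edgeR adjusted p = 0.0293). Its total was -0.05 on the log2 scale.

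In SRSF11 the unproductive count alone moved past the threshold, from 188, 207 and 209.9 CPM in SCR1 to between 226 and 294 CPM in KO (log2 fold change 0.42, edgeR adjusted p = 0.0105), while its coding count stood at -0.04 and was not called. Beside a total of 393 CPM in SCR1 and 465 CPM in KO, the mean unproductive count went from 201 to 269.6 CPM. In RBM39 the unproductive count rose with a log2 fold change of 0.27 (edgeR adjusted p = 0.0211), and the coding count, lower than all controls in 4 of 6 KO libraries, stood at -0.32 with an adjusted p of 0.232. In SRSF5 the unproductive count rose with 0.26 (edgeR adjusted p = 0.0121). In HNRNPL and HNRNPH1 the coding counts fell, with log2 fold changes of -0.28 and -0.22, and the unproductive counts, at 0.30 in each, were not called. Coding counts also fell in HNRNPM, HNRNPC, HNRNPU, HNRNPAB, PTBP1, HNRNPD, SRSF3, SF3B3 and U2AF2. HNRNPU is a case in which the total was not called and the coding class was, with a log2 fold change of -0.22. HNRNPA2B1 had the single unproductive count that fell, at -0.23.

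**Figure D4:**
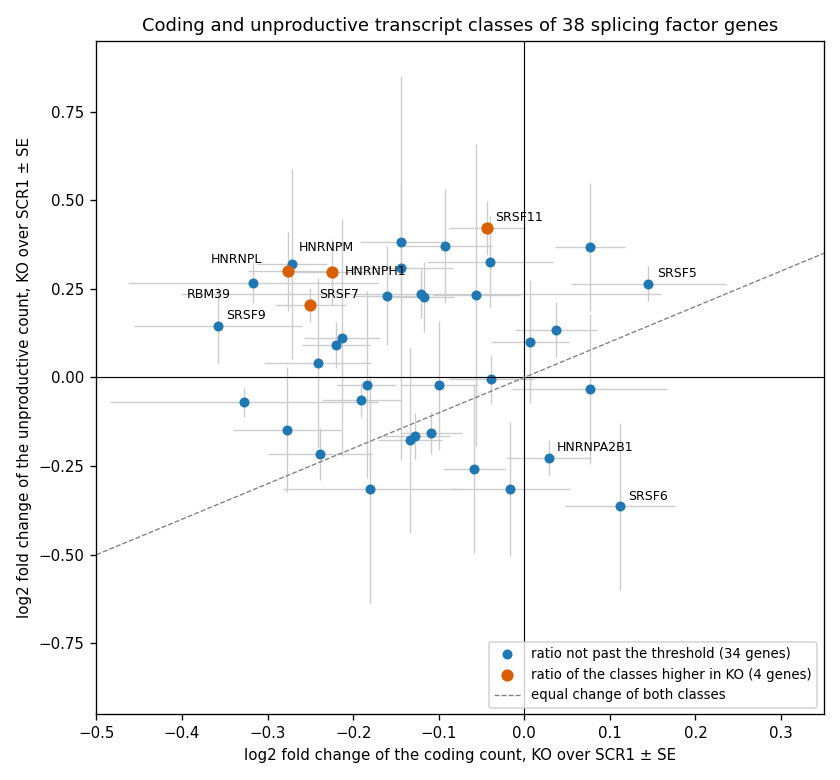
Log2 fold change of the coding count against that of the unproductive count, KO over SCR1 with SE bars, for 38 splicing factor genes. Most points lie left of 0, and the 4 orange points, in which the ratio of the classes was called, lie above the dashed line of equal change. HNRNPA2B1 and SRSF6 lie below it.

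The most abundant unproductive transcript of SRSF7 keeps an intron. No test ties the change of the ratio, which covers all its unproductive transcripts, to this one. SRSF7 occupies chr2:38743599-38751494 (hg38, minus strand), and SRSF7-208, the transcript in question and of the NMD type, keeps the 875 bases of intron 3, chr2:38748654-38749528, as part of an exon. Reading on from the exon, the frame meets a stop in the intron at chr2:38749516-38749518, 1138 bases before the last exon junction. The 30 bases that end with this stop, in capitals, run across the end of exon 3 into the intron. The second line is the 5′ splice site of the same intron, which has to go unused for the intron to stay, with its first bases in capitals after 9 bases of exon. Both come from the reference transcripts of GENCODE 44.

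SRSF7-208 early stop: cggcgaagaagaagcaggtatttatttTAA
SRSF7 intron 3, 5′ splice site: aagaagcagGTatttattttaataaaggaa

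SRSF7-208 stood at 73.0, 69.3 and 73.8 TPM in SCR1 and at 80.04 to 91.4 TPM in KO with a median of 83.5. The groups did not overlap, and the adjusted p in the test of single transcripts was 0.319. SRSF7-202, the most abundant coding transcript, went from 155, 155 and 161 TPM to between 116 and 137 TPM with a median of 121. Its log2 fold change was -0.39 ± 0.05 (SE, edgeR adjusted p = 0.0153), and the call was lost when any one of the SCR1 libraries was left out.

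**Figure D5:**
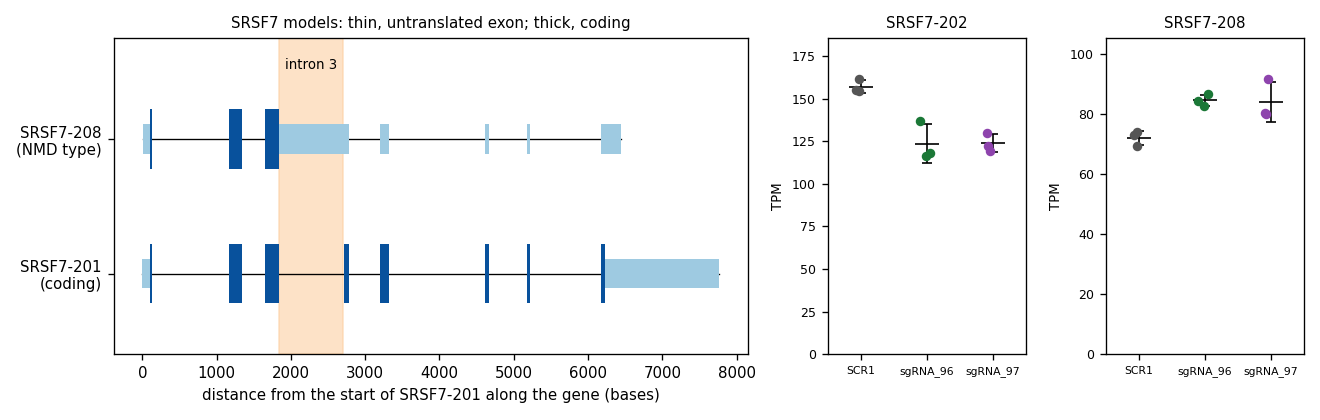
Left, the SRSF7 models SRSF7-201, the canonical coding transcript, and SRSF7-208 by distance in bases from the start of SRSF7-201, with thin boxes for untranslated and thick boxes for coding exon parts and intron 3 shaded. Right, TPM per library with the mean and SD of each group of 3: SRSF7-202 is lower and SRSF7-208 higher with both guides than with SCR1.

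Other members carry poison exons, which the canonical transcript skips. For the SR protein and TRA2 genes in which the most abundant NMD transcript has such an exon with the stop inside it, the 30 bases that end at the stop are given below, with the stop codon in capitals. They show what inclusion does to the frame. SRSF12 is left out, since it was barely detected. The exons are 276 bases long in TRA2B-205 (chr3:185931577-185931852, minus strand), 301 in TRA2A-211 (chr7:23522132-23522432, minus), 268 in SRSF6-202 (chr20:43459153-43459420, plus), 456 in SRSF3-203 (chr6:36599821-36600276, plus) 175 in SRSF4-208 (chr1:29165890-29166064, minus, the exon with the stop among 4 extra ones) and 117 in SRSF11-212 (chr1:70231859-70231975, plus).

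TRA2B-205 poison exon stop: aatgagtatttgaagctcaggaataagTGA
TRA2A-211 poison exon stop: aaaaaattgaacagaagattggtcagaTAG
SRSF6-202 poison exon stop: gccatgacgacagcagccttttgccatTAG
SRSF4-208 poison exon stop: ggagaggttcggttcttacaaggaaaaTGA
SRSF3-203 poison exon stop: accatcatgtctcttctcaccaccctcTGA
SRSF11-212 poison exon stop: gttgttcataaaacagcttttgaaagtTGA

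None of these genes showed a called change of the class ratio apart from SRSF11. In TRA2B the unproductive share was 76.4 to 79.3% in SCR1 and 77.9 to 87.4% in KO, and TRA2B-205 itself stood at 104 ± 3.54 TPM (SD, n = 3) and 93.8 ± 6.33 TPM (SD, n = 6). In SRSF6 the share was 12.3 to 18.2% and 7.95 to 17.9%, in SRSF3 50.2 to 53.3% and 52.8 to 56.2%, in TRA2A 29.1 to 32.2% and 29.8 to 45.4%, and in SRSF4 8.70 to 14.5% and 12.3 to 16.7%. When NMD transcripts alone made up the unproductive class, 1 splicing factor gene was called, SRSF7, and when retained-intron transcripts alone made it up, 8 were. Both counts stand without the share of all genes called in the same setting. They therefore do not show a retained-intron effect particular to the splicing factors.

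In 3 of the genes described above, the most abundant unproductive transcript was of the retained-intron type and higher in every KO library. The share of all transcripts for which this held was not computed. Over all genes, the retained-intron transcripts tested had a median log2 fold change of 0.20. That of SRSF11-214 was 0.46, that of SRSF5-212 0.33 and that of RBM39-221 0.55. Whether these 3 exceed the shift over all genes was not tested. SRSF11-214 stood at 35.3, 40.9 and 42.1 TPM in SCR1 and 45.5 to 60.7 TPM in KO (edgeR adjusted p = 0.0898). SRSF5-212, which keeps the 1215 bases of intron 5 of SRSF5 (chr14:69769252-69770466), stood at 42.7, 40.9 and 42.7 TPM and at 44.9 to 60.5 TPM (edgeR adjusted p = 0.281). RBM39-221 stood at 38.8, 43.1 and 39.1 TPM and at 48.1 to 73.3 TPM (edgeR adjusted p = 0.107), but only 20 of its 2415 bases lie in introns of the canonical transcript. None of the 3 passed the test. Several models of this type are fragments, such as SRSF3-206 with 544 bases and HNRNPL-205 with 588, so their counts can come from reads that also fit other transcripts. SRSF3-206 went the other way, from 281 ± 9.20 TPM (SD, n = 3) to 237 ± 12.4 TPM (SD, n = 6).

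The 5′ splice site of the intron kept in SRSF5-212 is shown in the same form as that of SRSF7, GT in capitals after 9 bases of exon.

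SRSF5 intron 5, 5′ splice site: agctggcagGTttgttgaaatacagttttg

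Over single transcripts, 479 of the 762 were tested and 5 were called, all coding and all lower, a share of 1.04% beside 0.633% of all transcripts tested. They were SRSF7-202, HNRNPM-201, SF3A3-201, HNRNPF-201 and HNRNPA0-201. HNRNPM-201 stood at 193 ± 3.84 TPM (SD, n = 3) in SCR1 and 162 ± 7.64 TPM (SD, n = 6) in KO, a log2 fold change of -0.30 (edgeR adjusted p = 0.0291). When any one of the SCR1 libraries was left out, no transcript of these genes was called. The median log2 fold change of the 226 coding transcripts tested was -0.20 beside -0.07 for all coding transcripts. That of the 137 retained-intron transcripts was 0.18 beside 0.20, and that of the 81 NMD transcripts was -0.07 beside -0.01.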

How the data were processed

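Poly(A)-selected TruSeq libraries were sequenced. The authors trimmed the reads (TrimGalore), mapped them to hg38 (STAR) and quantified transcripts (Salmon 1.10.1). They deposited estimated counts per transcript, without normalization, and TPM, which corrects for effective transcript length. The annotation release was not given in the sources used here. All 252835 transcript identifiers matched GENCODE 44, whose transcript types and coordinates were used.

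Estimated counts were summed per gene, or per gene and transcript class, and rounded. Genes passed filterByExpr (minimum count 10), were scaled by TMM and entered the quasi-likelihood test (edgeR 4.0.16, R 4.3.3). Benjamini-Hochberg adjustment covered all features tested, with a threshold of 0.05. All adjusted p-values come from this test unless another tool is named. The class ratio was tested with diffSpliceDGE. Alternatives were limma 3.58.1 and DESeq2 1.42.0, the tool of the study's methods. The tests of KO against SCR1 on genes, transcripts and the class ratio were checked on simulated counts, with changes larger than those reported here. The tests of single guides and of each class on its own were not checked in this way. Members, lists and tests were chosen with earlier results of these data known. Values per library are given for called members (up to 8 rises, 8 falls and 8 ratio changes) and MEF2C; other genes were named after their values were seen. Depth was 15212462 to 29777361 counts per library. Replicate pairs differed by 4.38 to 8.82 times the sampling noise, so none was a duplicate.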

Additional observations from a re-analysis of the deposited data

Results flagged for a closer look

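Of 88 values checked for a KO library that stood apart from the other 5 (the gene counts of MEF2C and of the 49 splicing factor genes tested, and the unproductive share of 38), 2 were found, and chance gives about 1 in 20. The MEF2C level of sgRNA_97 replicate 1 was 553 CPM, whereas the remaining 5 ranged from 495 to 510.1 CPM. The unproductive share of SF3A1, which was not called, was 8.79% in sgRNA_97 replicate 4 and 5.52 to 6.495% in the remaining 5. The causes were not tested.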

How the results depend on the processing

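The counts of splicing factor genes called in KO against SCR1 stayed within 1.5 times of 24 with DESeq2 (26), with RLE size factors, without an expression filter (25), with the length offset (17) and with a replicate block (24). They fell to 8 on log2(TPM + 1) and on log2(TPM + 0.1), and to 4 on log2(TPM + 1) without a filter. Leaving out single libraries gave 11 to 29 genes, 1 to 15 for sgRNA_96, 5 to 16 for sgRNA_97 and 0 for the difference between the guides. For the class ratio, 4 genes in the main test, leaving out single libraries gave 1 to 6. Limma on the log2 ratio gave 0 with either pseudocount and 0 on TPM, NMD transcripts alone gave 1, own scaling of each class 2, a minimum of 50 counts 7, retained-intron transcripts alone 8 and leaving out both KO replicates 1 gave 7. For single transcripts, 5 in the main test, limma on TPM gave 2, a mean count of at least 50 gave 9 and leaving out single libraries gave 0 to 8. Same-numbered libraries did not deviate together (correlations of -0.07 to 0.06), which gave no sign of pairing by number. Such values cannot show that these libraries were prepared apart. With the replicate block, 12 genes were called for sgRNA_96, 18 for sgRNA_97, 4 for the class ratio and 6 transcripts. The counts in this section are given without the share of all features called in the same setting. Of 506 repeats of 43 single results, 367 kept their side of the threshold, 132 lost it, 7 gained it and none changed direction. The causes were not tested. Few counts stood behind some class ratios, as in HNRNPUL2 with a mean of 17.4 unproductive counts per library, and transcript counts rest on how Salmon divided shared reads.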
